A study of Mus musculus with 27 samples.

Results

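The Cyp4a genes of the mouse encode cytochrome P450 enzymes that hydroxylate fatty acids at the end of the chain. The 6 genes described here, Cyp4a10, Cyp4a12a, Cyp4a12b, Cyp4a14, Cyp4a31 and Cyp4a32, were taken by their GENCODE M21 symbols from the 43346 genes of the deposited table, with no threshold on their values. Cyp4a29 and Cyp4a30b, annotated in the same cluster, were not on the list that gave these symbols. Hepatocytes, the parenchymal cells of the liver, came from female mice at 12 weeks of age, and the labels name no treatment. The 9 inbred strains, with 3 poly(A) RNA-seq libraries each and 27 in all, were the wild-derived CAST/EiJ, PWK/PhJ and WSB/EiJ and the laboratory strains 129S1/SvImJ, A/J, C57BL/6J, DBA/2J, NOD/ShiLtJ and NZO/HlLtJ. The series set genetic variation among strains beside variation in chromatin marks, DNA methylation and transcript levels, and the transcript levels are analysed here. The labels call the libraries of a strain biological replicates without tying them to named mice. The p-values therefore weigh strain differences against the spread between these samples.

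Cyp4a enzymes sit in the endoplasmic reticulum, take electrons from the reductase Por and add a hydroxyl group to the terminal carbon of medium- and long-chain fatty acids. The products are oxidised further to dicarboxylic acids, which peroxisomes shorten. Cyp4a10 and Cyp4a14 are textbook targets of PPAR-alpha, the nuclear receptor that responds to fatty acids, to fasting and to fibrate drugs. Cyp4a12a and Cyp4a12b are known for higher expression in males and for making a vasoactive hydroxylated arachidonic acid. Cyp4a31 and Cyp4a32 are close relatives of Cyp4a10.

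The genes lie side by side on chromosome 4, and this matters for how their counts are read. In GENCODE M21 on GRCm38 they spanned 322.6 kb, from 115299046 to 115621602, in the order Cyp4a12a, Cyp4a12b, Cyp4a14, Cyp4a10, Cyp4a31 and Cyp4a32. Cyp4a14 lies on the minus strand and the others on the plus strand, and no member overlaps another. The stretch of coding sequence around the cysteine that holds the heme iron is shown for each gene because it makes the 3 sequence groups visible. It is printed 5′ to 3′ on the coding strand, joins the end of exon 11 to the start of exon 12, and has in capitals each base that differs from Cyp4a10.
Cyp4a10, chr4:115529487-115532558, plus strand: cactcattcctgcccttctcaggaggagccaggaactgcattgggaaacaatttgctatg
Cyp4a31, chr4:115574935-115577963, plus strand: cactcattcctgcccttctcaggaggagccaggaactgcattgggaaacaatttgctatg
Cyp4a32, chr4:115614865-115621461, plus strand: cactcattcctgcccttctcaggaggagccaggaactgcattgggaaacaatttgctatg
Cyp4a12a, chr4:115328971-115331861, plus strand: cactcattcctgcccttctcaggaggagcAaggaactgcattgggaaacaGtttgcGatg
Cyp4a12b, chr4:115435225-115438084, plus strand: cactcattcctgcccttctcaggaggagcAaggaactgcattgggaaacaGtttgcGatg
Cyp4a14, chr4:115487284-115489820, minus strand: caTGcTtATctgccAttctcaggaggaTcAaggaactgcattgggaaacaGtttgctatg

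In these 60 bases Cyp4a10, Cyp4a31 and Cyp4a32 were identical. Cyp4a12a and Cyp4a12b shared the same 3 differences from Cyp4a10, and Cyp4a14 had 9. The same grouping held over the whole coding sequence of the reference. Cyp4a12a and Cyp4a12b were 98.5% identical, with 23 mismatches in 1524 bases. Cyp4a10 was 97.2% identical to Cyp4a32 and 96.6% to Cyp4a31, and Cyp4a31 and Cyp4a32 were 96% identical. Cyp4a14 stood apart at 75.4% to 76.1% identity with every other member. A window of 50 bases in the coding sequence matched another annotated transcript exactly at 54.8% of positions in Cyp4a12a and in Cyp4a12b, 46.7% in Cyp4a32, 40.5% in Cyp4a10 and 31.6% in Cyp4a31. For Cyp4a14 the share was 0.4%, all of it with the pseudogene Cyp4a30-ps.

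**Figure D1:**
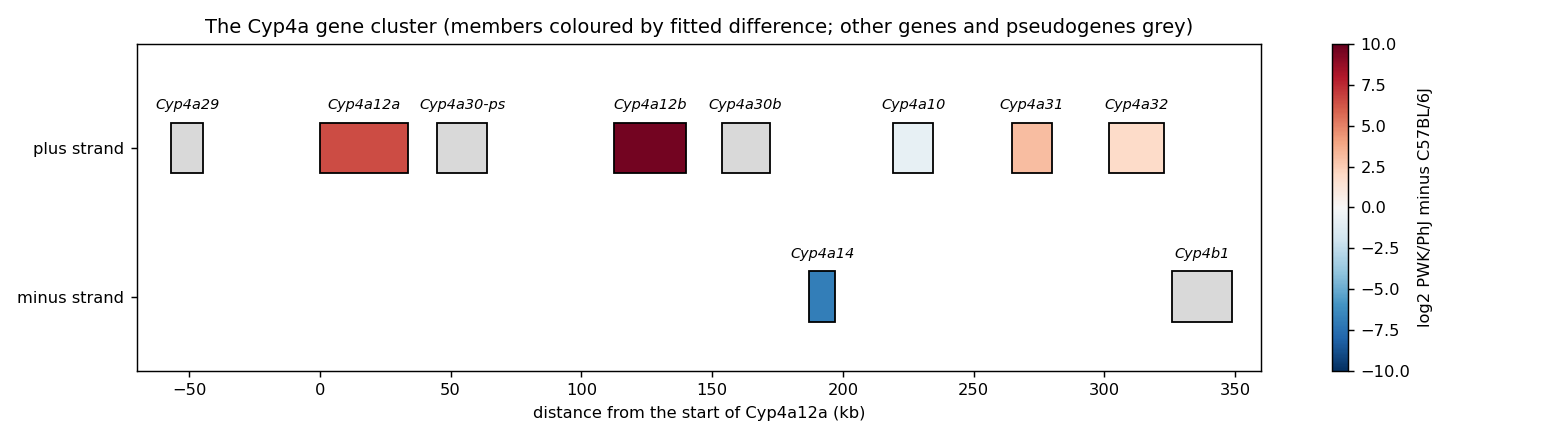
The Cyp4a cluster drawn to scale, with distance from the start of Cyp4a12a in kb on the horizontal axis and the strand on the vertical axis. Members are coloured by the fitted log2 difference of PWK/PhJ minus C57BL/6J and other genes are grey. Cyp4a14 (-6.92) lies between Cyp4a12b (9.64) and Cyp4a10 (-0.80, not past the test).

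The deposited values carry the mark of this similarity. Cyp4a14 had a whole-number count in all 27 libraries. Counts of the other 5 members were fractional in most libraries, while the sum of Cyp4a12a and Cyp4a12b, and the sum of Cyp4a10, Cyp4a31 and Cyp4a32, were whole in all 27 within 0.001 of a count. Reads were therefore divided inside these 2 sets and not between them. Levels of single genes within a set depend on that division, and the sums do not. The sources used here do not say whether the sequence that reads were matched to was that of C57BL/6J or the strain's own, and the part of this choice in the levels of divergent strains was not tested.

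Library totals ran from 17015932 to 35078483 counts, and 1 count was worth 0.0253 to 0.0516 CPM, the unit of counts scaled to a common normalised library size. Hepatocyte markers (10 genes, among them Alb and Ttr) summed to between 97700 CPM in CAST/EiJ and 313000 CPM in A/J. Markers of liver endothelial cells summed to 183 to 616 CPM in PWK/PhJ and 50.5 to 245 CPM elsewhere. Markers of Kupffer cells summed to 126 to 370 CPM in PWK/PhJ and 29.9 to 254 CPM elsewhere. Markers of stellate cells reached at most 81.1 CPM, and those of lymphocytes and cholangiocytes stayed under 12 CPM. In such bulk samples, fewer cells of a type and less RNA per cell cannot be told apart. WSB/EiJ replicate 4 stood apart from the other WSB/EiJ libraries in the Cyp4a genes, and calls that rest on it are given with and without it.

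Each of the 6 genes differed among strains in the edgeR quasi-likelihood test at an adjusted p under 0.05, against 74.2% of the 14482 genes tested, so that the count of 6 by itself says little. Cyp4a12b had at most 29 counts per library outside CAST/EiJ and PWK/PhJ. The genes differed more in how wide and how finely graded their levels were. Cyp4a32 differed in 29 of the 36 strain pairs, a number that 0.345% of the genes tested reached, and Cyp4a31 in 24. Cyp4a12a and Cyp4a14 differed in 16 pairs each, Cyp4a12b in 15 and Cyp4a10 in 8. The median gene differed in 8 pairs, and 23.4% of all combinations of a gene and a pair were called. Differences between strains held 65.5% of the variance of Cyp4a10 on the log2 scale, near the median of 66.6% over all genes, and 80.6% to 96.3% for the other 5.

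**Figure D2:**
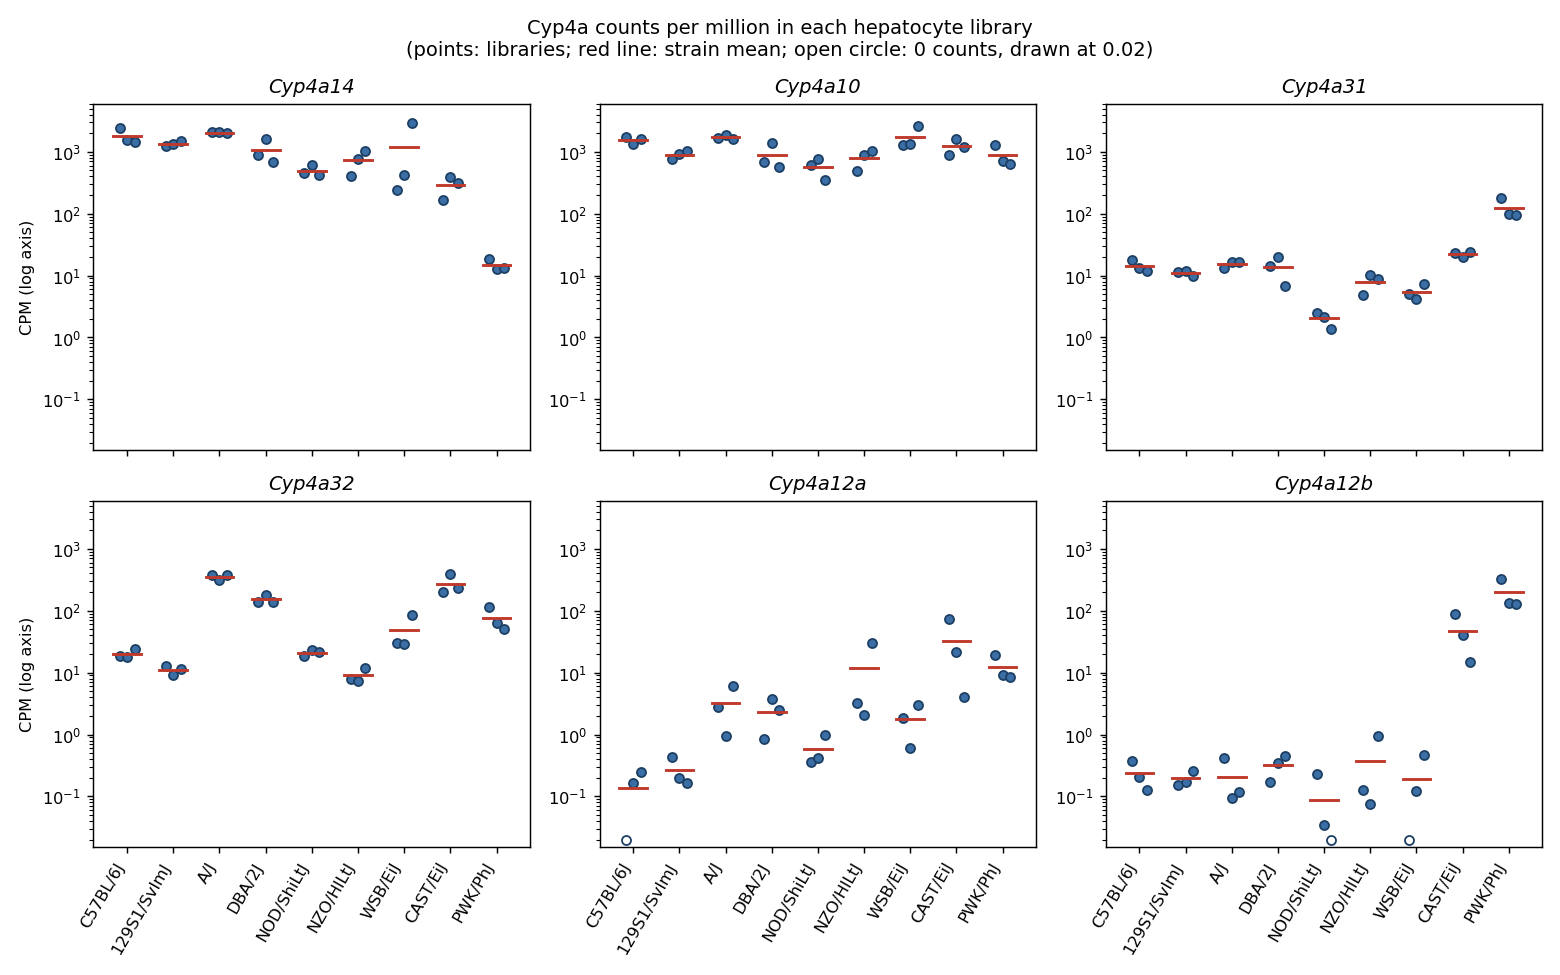
Level of each Cyp4a gene in every library, in CPM on a log axis, by strain on the horizontal axis; points are libraries, red lines strain means and open circles libraries with no count. PWK/PhJ lies lowest for Cyp4a14 (mean 15 CPM) and highest for Cyp4a31 (124 CPM) and Cyp4a12b (198 CPM), while the strain means of Cyp4a10 stay between 573 and 1724 CPM.

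Cyp4a14, the member whose reads were not shared, was abundant in every strain but PWK/PhJ. In PWK/PhJ the 3 libraries held 18.9, 12.6 and 13.5 CPM, from 366 to 472 counts. In CAST/EiJ they held 169, 387 and 311 CPM, and in NOD/ShiLtJ 455, 605 and 425 CPM. The PWK/PhJ values lie far below every other library, and the CAST/EiJ values lie below all of NOD/ShiLtJ.
The highest levels were in A/J, at 2056, 2104 and 1986 CPM, and in C57BL/6J, at 2464, 1528 and 1447 CPM. Libraries of 129S1/SvImJ held 1232, 1333 and 1489 CPM. In DBA/2J the values were 885, 1596 and 691 CPM, and in NZO/HlLtJ 408, 757 and 1044 CPM. WSB/EiJ held 244, 421.5 and 2883 CPM, the widest spread of any strain. No neighbouring strains in the order of means from A/J to CAST/EiJ differed in the test.

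The widest gap between neighbouring strains in the order of Cyp4a14 levels was below CAST/EiJ. The PWK/PhJ mean of 15 ± 3.39 CPM (SD, n = 3) was 19.3-fold lower than that of CAST/EiJ (289 ± 110 CPM), a log2 difference of 4.27 ± 0.63 (SE; edgeR adjusted p = 1.11e-05). Against the other 7 strains it was 33.1-fold (NOD/ShiLtJ) to 137-fold (A/J) lower, and over the 8 comparisons 15.1% of all gene tests were called lower in PWK/PhJ. The call held for all 8 strains without any 1 of the 27 libraries, although the difference from WSB/EiJ shrank from 6.31 to 4.48 on the log2 scale without WSB/EiJ replicate 4. CAST/EiJ in turn was lower than 5 strains, by 3.66-fold (DBA/2J) to 7.1-fold (A/J), with a largest edgeR adjusted p of 0.0132, beside 17.3% of all gene tests called lower in CAST/EiJ. One of these 5 calls, against WSB/EiJ, rests on WSB/EiJ replicate 4 (-0.21 without it), and that against DBA/2J was lost without CAST/EiJ replicate 1 or DBA/2J replicate 3 (largest adjusted p = 0.0821). The 2 strains also held the lowest levels of Vnn1, a PPAR-alpha target: 5.39 ± 1.95 CPM in CAST/EiJ and 8.3 ± 1.29 CPM in PWK/PhJ.

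Cyp4a10, the other abundant PPAR-alpha target, varied far less. Its strain means ran from 573 ± 206 CPM in NOD/ShiLtJ to 1724 ± 749 CPM in WSB/EiJ, a 3.01-fold range (log2 difference 1.59 ± 0.36, edgeR adjusted p = 0.00269). WSB/EiJ led only with its replicate 4: without it the WSB/EiJ mean was 1291 CPM, below A/J (log2 -0.40) and C57BL/6J (-0.25), neither of which was called, and its difference from NOD/ShiLtJ was 1.17 ± 0.37, or 2.25-fold (edgeR adjusted p = 0.0291). NOD/ShiLtJ libraries held 614, 755 and 350.3 CPM. A/J libraries held 1667, 1854 and 1607 CPM, and C57BL/6J libraries 1712, 1317 and 1597 CPM. All 3 NOD/ShiLtJ values lie below all values of these 2 strains. No neighbours in the order of strain means differed, so the order between the ends is not resolved. Of the 8 pairs called, 4 set NOD/ShiLtJ lower (than C57BL/6J, A/J, WSB/EiJ and CAST/EiJ). The remaining 4 set NZO/HlLtJ and PWK/PhJ lower than A/J and WSB/EiJ. The calls of NOD/ShiLtJ below A/J and below WSB/EiJ held without any 1 library. Each of the other 6 was lost without at least 1: the call against C57BL/6J without NOD/ShiLtJ replicate 3 (edgeR adjusted p = 0.0637), that against CAST/EiJ without CAST/EiJ replicate 4 or NOD/ShiLtJ replicate 1 or 3 (up to 0.122), and that of NZO/HlLtJ below A/J without A/J replicate 2 or NZO/HlLtJ replicate 1 (up to 0.121). The call of PWK/PhJ below A/J was lost without any of 8 libraries, among them all of A/J and PWK/PhJ replicates 2 and 3 (up to 0.168). In PWK/PhJ, where Cyp4a14 was at 15 CPM, Cyp4a10 held 1299, 711 and 639 CPM. Its difference there from C57BL/6J, a log2 value of -0.80 ± 0.36, did not pass (edgeR adjusted p = 0.102).

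The pair Cyp4a10 and Cyp4a14 moved together inside strains. In 9 of 9 strains the library with the most Cyp4a10 was also the library with the most Cyp4a14. After each strain's mean was taken out, log2 CPM of the pair correlated at r = 0.78 over 27 libraries, against r = 0.39 with the strain means left in. The libraries of a strain share their strain mean and these r values are descriptions. Neither they nor the counts of strains with a shared highest library were set beside those of all genes. The pair shared no run of 50 coding bases in the reference. The number of strains with a shared highest library was 6 of 9 for Cyp4a10 with Cyp4a32, 5 of 9 with Cyp4a31 and with Cyp4a12b, and 4 of 9 with Cyp4a12a. With strain means taken out, Cyp4a10 correlated at r = 0.78 with Cyp4a31, 0.69 with Cyp4a32, 0.41 with Cyp4a12b and 0.12 with Cyp4a12a. The values with Cyp4a31 and Cyp4a32 depend on how reads were divided among these genes. Without WSB/EiJ replicate 4 the 4 correlations of Cyp4a10 were 0.76, 0.62, 0.29 and 0.04, and that with Cyp4a14 was 0.84.

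Cyp4a31, which is nearly the same as Cyp4a10 in sequence, had its own order of strains. PWK/PhJ libraries held 180, 97.2 and 94.3 CPM. The next strain, CAST/EiJ, held 22.9, 20.3 and 23.9 CPM, and at the low end NOD/ShiLtJ held 2.53, 2.18 and 1.39 CPM. Every PWK/PhJ library was above every other library, and every NOD/ShiLtJ library was below every other. The other 6 strains lay between 4.24 and 19.7 CPM and overlapped. The PWK/PhJ mean of 124 ± 48.9 CPM was 5.55-fold above that of CAST/EiJ (log2 difference 2.47 ± 0.31, edgeR adjusted p = 1.27e-06) and 60.6-fold above that of NOD/ShiLtJ (5.92 ± 0.38, edgeR adjusted p = 1.15e-11). It was higher than in all 8 other strains, comparisons in which 15.3% of all gene tests were called higher in PWK/PhJ. The NOD/ShiLtJ mean of 2.04 ± 0.583 CPM was lower than in all 8, by 2.68-fold from WSB/EiJ (edgeR adjusted p = 0.00454) or more, beside 8.96% of all gene tests called lower in NOD/ShiLtJ. The 15 pairs that include PWK/PhJ or NOD/ShiLtJ kept their calls without any 1 library. Of the other called pairs, up to 2 were lost when 1 library was left out.

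Cyp4a32 was the most finely graded member, and its high strains were not those of Cyp4a31. A/J libraries held 376, 316 and 377 CPM, CAST/EiJ libraries 197, 389 and 237 CPM, and DBA/2J libraries 138, 182 and 139 CPM. PWK/PhJ libraries held 114, 64.2 and 50.5 CPM, and WSB/EiJ libraries 29.8, 29.4 and 86.8 CPM. In the low group, NOD/ShiLtJ held 18.6, 23.1 and 21.6 CPM, C57BL/6J 18.7, 17.9 and 23.7 CPM, 129S1/SvImJ 12.7, 9.13 and 11.4 CPM, and NZO/HlLtJ 7.88, 7.21 and 12 CPM. The A/J, CAST/EiJ and DBA/2J libraries all lay above the libraries of the 6 other strains.
From A/J (356 ± 35.1 CPM) to NZO/HlLtJ (9.03 ± 2.59 CPM) the difference was 39.5-fold (log2 5.30 ± 0.40, edgeR adjusted p = 6.28e-10). A/J was 17.7-fold above C57BL/6J (4.15 ± 0.38, edgeR adjusted p = 1.79e-08). Among neighbours in the order, A/J and CAST/EiJ (adjusted p = 0.379) and CAST/EiJ and DBA/2J (0.0567) did not differ past the threshold. DBA/2J was 2.01-fold above PWK/PhJ (edgeR adjusted p = 0.0277), a call lost without DBA/2J replicate 3 or PWK/PhJ replicate 2 or 3 (up to 0.132). WSB/EiJ was 2.31-fold above NOD/ShiLtJ (0.0127), a call lost without NOD/ShiLtJ replicate 1 or WSB/EiJ replicate 4 (up to 0.256). NOD/ShiLtJ and C57BL/6J, C57BL/6J and 129S1/SvImJ, and 129S1/SvImJ and NZO/HlLtJ did not differ past it.

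Cyp4a12b, known as male-biased, was near the detection floor in most of these female hepatocytes. It was found at 328.5, 135 and 130.2 CPM in PWK/PhJ, from 3924 to 8227 counts. It reached 87.5, 41 and 15 CPM in CAST/EiJ, and at most 0.93 CPM in each of the 21 other libraries. The PWK/PhJ values lie above all CAST/EiJ values, and both lie above everything else. PWK/PhJ (198 ± 113 CPM) was 4.13-fold above CAST/EiJ (47.8 ± 36.8 CPM; log2 difference 2.04 ± 0.51, edgeR adjusted p = 0.00322). That log2 difference was 1.47 without PWK/PhJ replicate 1 and 2.81 without CAST/EiJ replicate 1, and stayed called. CAST/EiJ was 136-fold above NZO/HlLtJ, the next strain (log2 7.09 ± 0.72, edgeR adjusted p = 3.44e-08), a difference of 8.82 without NZO/HlLtJ replicate 3. The 7 low strains did not differ from one another, at counts between 0 and 29 per library.

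Cyp4a12a was spread over more strains at a lower level, and its libraries disagreed more. CAST/EiJ held 72.9, 21.7 and 3.97 CPM, PWK/PhJ 19.2, 9.24 and 8.43 CPM, and NZO/HlLtJ 3.29, 2.1 and 29.6 CPM. C57BL/6J held 0, 0.164 and 0.252 CPM, from 0, 4 and 6 counts. The ranges of CAST/EiJ, PWK/PhJ and NZO/HlLtJ overlap, and none of these strains differed from another among them. CAST/EiJ was 9.97-fold above A/J (log2 3.32 ± 0.90, edgeR adjusted p = 0.00498), a difference that fell to 1.98 and lost its call without CAST/EiJ replicate 1 (0.0825). NZO/HlLtJ was 6.49-fold above WSB/EiJ (edgeR adjusted p = 0.028), and that call was lost without NZO/HlLtJ replicate 3 (0.617) and without WSB/EiJ replicate 2 or 3. Without NZO/HlLtJ replicate 3, 21 pairs were called in place of 16.

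The sums that do not depend on the division of reads gave a coarser picture. Cyp4a12a and Cyp4a12b together held 210.3 ± 119 CPM in PWK/PhJ and 80.7 ± 72.4 CPM in CAST/EiJ, which did not differ past the threshold (log2 1.38 ± 0.72, edgeR adjusted p = 0.146). Both were above all 7 other strains, with a largest adjusted p of 0.00845 for CAST/EiJ against NZO/HlLtJ. The libraries of CAST/EiJ (18.92 to 160.4 CPM) and NZO/HlLtJ (2.18 to 30.6 CPM) overlapped, and that call was lost without CAST/EiJ replicate 1, which left a CAST/EiJ mean of 40.8 CPM (log2 1.78 ± 0.75, edgeR adjusted p = 0.096), or without NZO/HlLtJ replicate 1. The other 13 of these 14 calls held without any 1 library. Cyp4a10, Cyp4a31 and Cyp4a32 together ran from 596 ± 206 CPM in NOD/ShiLtJ to 2081 ± 95.3 CPM in A/J (edgeR adjusted p of the strain effect 0.00134). In this sum PWK/PhJ (1083 ± 444 CPM) did not differ from C57BL/6J (1576 ± 206 CPM; log2 -0.54 ± 0.35, edgeR adjusted p = 0.273). Most of this sum was Cyp4a10 in every strain, so it cannot show whether Cyp4a31 or Cyp4a32 differed, and the part of read division in their levels was not tested.

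The make-up of the family's transcripts was compared per length, as CPM per kb of the longest annotated transcript. For Cyp4a32 this transcript held little more than its 1527 coding bases. Those of the other members were longer, so the share of Cyp4a32 beside them depends on the annotation. The 6 genes summed to 1872 ± 61.6 CPM per kb in A/J, 1476 ± 301 in C57BL/6J, 611.5 ± 263 in PWK/PhJ and 485 ± 132 in NOD/ShiLtJ. In C57BL/6J, Cyp4a10 made up 50.1 ± 5.58% and Cyp4a14 48.6 ± 5.79% of the sum. Cyp4a14 made up 41.7% to 55.3% in 6 of the strains, 12.3 ± 2.27% in CAST/EiJ and 1.03 ± 0.205% in PWK/PhJ. In WSB/EiJ its share was 27.2 ± 17.8%, from 13.6% to 47.3% over the libraries. The share of Cyp4a32 differed by strain. It made up 19.2 ± 1.61% in CAST/EiJ, 12.5 ± 1.58% in A/J and 11.4 ± 2.93% in DBA/2J, but 0.915 ± 0.236% in C57BL/6J. In PWK/PhJ the sum held 68.8 ± 1.31% Cyp4a10, 13 ± 1.73% Cyp4a12b, 8.16 ± 0.389% Cyp4a31 and 8.12 ± 0.566% Cyp4a32. Over the 3 PWK/PhJ libraries Cyp4a12b took between 11.7% and 15% of the sum and Cyp4a31 between 7.86% and 8.6%. PWK/PhJ replicate 1 had the highest endothelial (616 CPM) and Kupffer (370 CPM) marker sums of the series and the highest Cyp4a12b and Cyp4a31 levels. The part of other cells in these levels was not tested, and shares within the sum cannot show it.

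**Figure D3:**
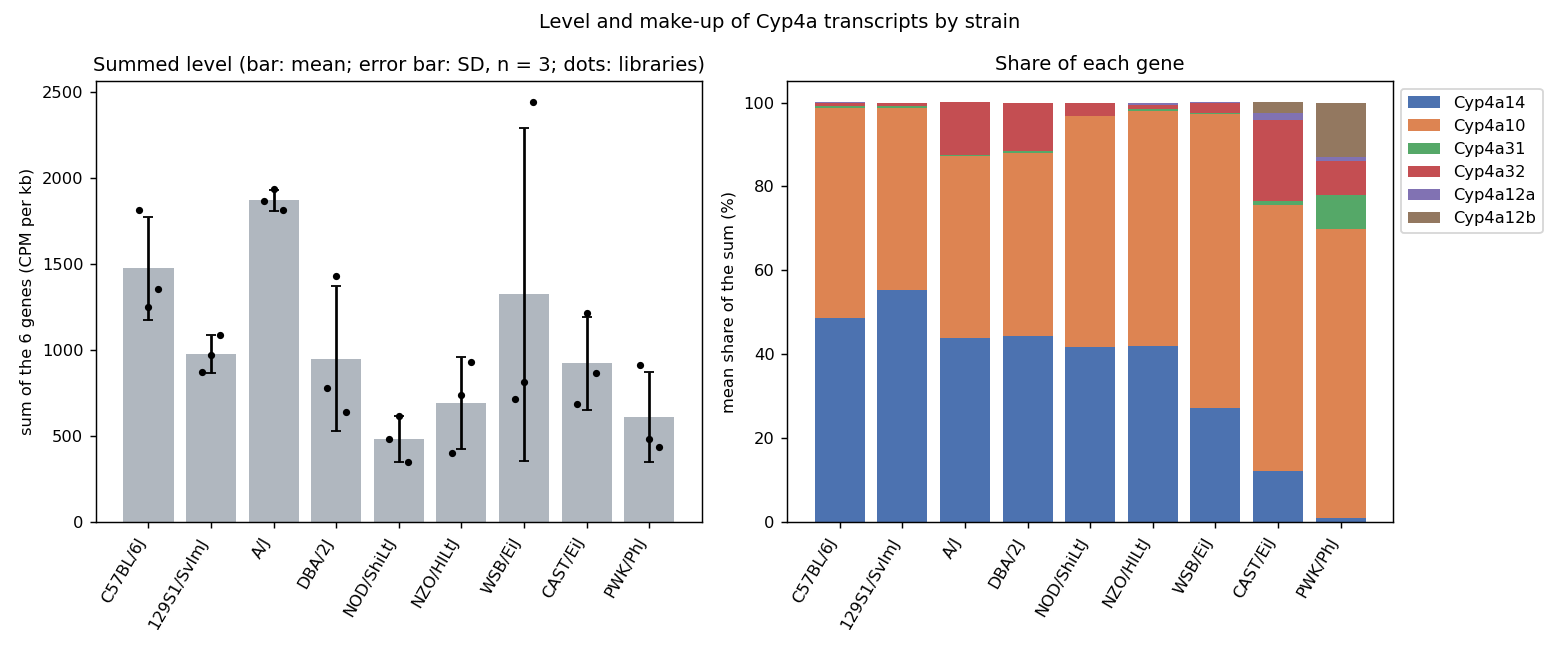
Left, the summed level of the 6 Cyp4a genes in CPM per kb by strain (bar, mean; error bar, SD of 3 libraries; dots, libraries). Right, the mean share of each gene in that sum, in percent; the Cyp4a14 share is 1.03% in PWK/PhJ and 12.3% in CAST/EiJ, against 48.6% in C57BL/6J.

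Against C57BL/6J, the strain of the reference genome, PWK/PhJ had 4 members higher (Cyp4a12a, Cyp4a12b, Cyp4a31 and Cyp4a32) and 1 lower (Cyp4a14), beside 12.5% of all genes higher and 13.7% lower. CAST/EiJ had 3 higher and 1 lower, beside 18.4% and 19.7% of all genes. The median log2 difference of the 6 genes was 2.52 in PWK/PhJ and 2.21 in CAST/EiJ, beside 0.01 and -0.02 over all genes. These comparisons share the C57BL/6J libraries. PWK/PhJ set directly against CAST/EiJ had 2 members higher (Cyp4a12b and Cyp4a31) and 2 lower (Cyp4a14 and Cyp4a32), beside 18.2% and 15.9% of all genes.

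WSB/EiJ replicate 4 had more of every Cyp4a gene than the other WSB/EiJ libraries. Cyp4a14 was at 2883 CPM in it and at 244 and 421.5 CPM in replicates 2 and 3, a log2 difference of 3.17 from their mean. Cyp4a10 was at 2588 CPM against 1265 and 1317 CPM. Over the members, the log2 difference ranged from 0.64 (Cyp4a31) to 3.17, and all 6 were highest in this library, as were 34.8% of all genes. PWK/PhJ replicate 1 was likewise the highest of its strain for all 6. WSB/EiJ replicate 4 was above the mean of the other WSB/EiJ libraries for 18 of 23 PPAR-alpha targets. Clock genes differed in it too: Dbp, an output gene of the circadian clock, was at 48.6 CPM against 3.33 and 3.55 CPM, and Arntl, a core activator, at 5.66 CPM against 13 and 12.1 CPM. Markers of other cells were lower in it, with 7 of 8 Kupffer and 7 of 8 endothelial markers below the mean of the other WSB/EiJ libraries. The Kupffer markers summed to 64.2 CPM in it against 88.9 and 125 CPM, the endothelial markers to 114 CPM against 130 and 147 CPM, and 6 of 8 stellate markers were lower. Of the hepatocyte markers, 7 of 10 were higher in it. The labels give no time of day and no feeding state, and the part of these or of the cell make-up was not tested.
Without this library, Cyp4a14 in WSB/EiJ was lower than in C57BL/6J (log2 -2.44 ± 0.41, edgeR adjusted p = 0.000176), A/J (-2.62), 129S1/SvImJ (-2.02), DBA/2J (-1.67) and NZO/HlLtJ (-1.15, adjusted p = 0.0306), none of which was called with it. The difference between CAST/EiJ and WSB/EiJ shrank from a called log2 value of -2.03 (edgeR adjusted p = 0.007) to -0.21, which was not called (0.71). For Cyp4a10 the calls of WSB/EiJ above NZO/HlLtJ (0.169) and above PWK/PhJ (0.285) were lost; the first was also lost without NZO/HlLtJ replicate 1, and the second without PWK/PhJ replicate 2 or 3. For Cyp4a32 PWK/PhJ became higher than WSB/EiJ (log2 1.36 ± 0.30, edgeR adjusted p = 0.00162). The call of WSB/EiJ above C57BL/6J for Cyp4a32 was lost (log2 0.56 ± 0.29, edgeR adjusted p = 0.274).

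**Figure D4:**
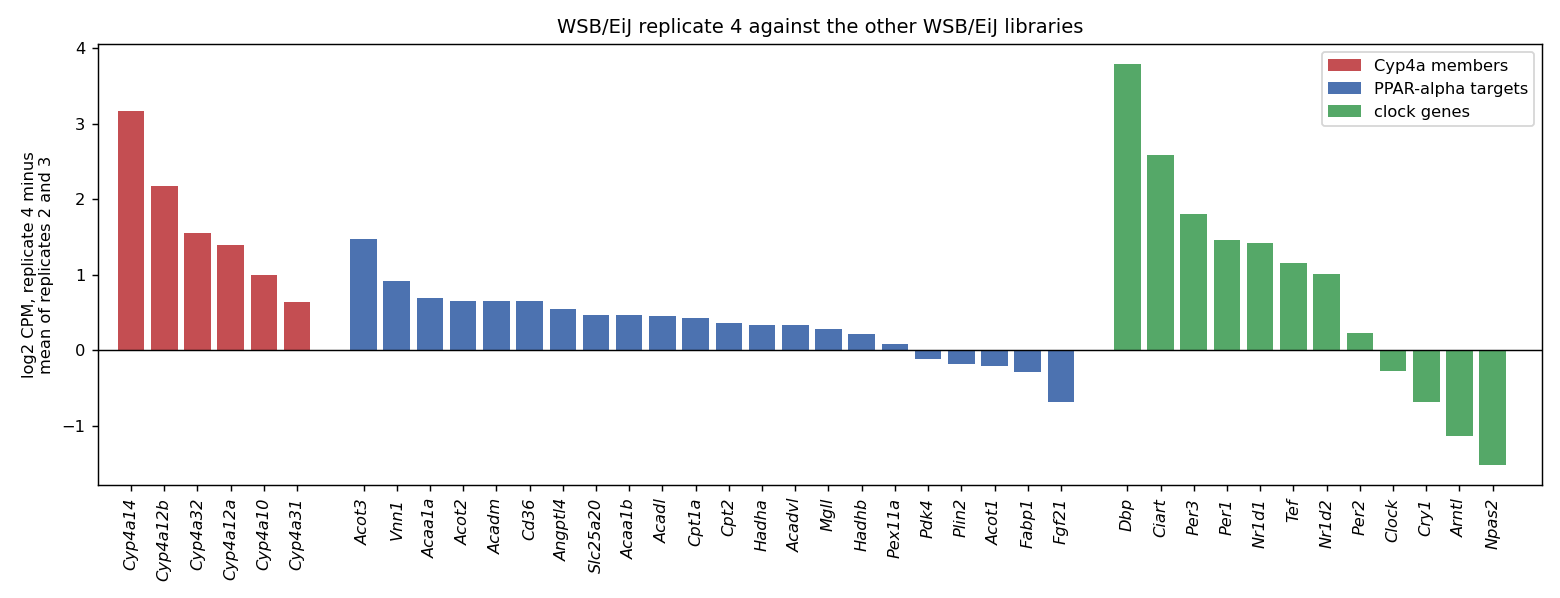
Log2 CPM of WSB/EiJ replicate 4 minus the mean of replicates 2 and 3, for each Cyp4a gene, 22 of the 23 PPAR-alpha targets and each of 12 clock genes. All 6 Cyp4a bars are above 0, the largest at 3.17 for Cyp4a14; among the clock genes Dbp reaches 3.79 and Npas2 -1.52.

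Another Cyp4 gene, Cyp4f14, was also lowest in PWK/PhJ. Of 14 Cyp4 genes listed beside the members, 9 were tested and 8 of these differed among strains (88.9%, beside 74.2% of all genes). Cyp4a29 and Cyp4a30b, which lie in the same cluster, had no count in any library after rounding. Cyp4f14, which hydroxylates leukotrienes and fatty acids and lies outside the cluster, had the strongest strain effect of the list. Its PWK/PhJ libraries held 7.31, 6.6 and 3.85 CPM, against 190.3 to 202 CPM in CAST/EiJ and 298.5 CPM or more elsewhere, so that the groups did not overlap (edgeR adjusted p of the strain effect 1.04e-11). Its log2 CPM correlated with that of Cyp4a14 at r = 0.87 over the 27 libraries, which share their strains. Cyp4b1, the neighbour of Cyp4a32 on the chromosome, was highest in PWK/PhJ (21.9 ± 13.8 CPM) and lowest in NZO/HlLtJ (2.24 ± 0.597 CPM, edgeR adjusted p of the strain effect 0.000406). Its PWK/PhJ libraries held 37.8 CPM in replicate 1 and 13.6 and 14.3 CPM in replicates 2 and 3. Cyp4v3 (288 to 523 CPM) and Cyp4f15 (117 to 367 CPM) differed among strains over narrower ranges of the strain means.

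Genes that work with Cyp4a enzymes in omega oxidation moved over small ranges. Of 17, 16 differed among strains (94.1%, beside 74.2% of all genes), with a median log2 range of 1.11 beside 1.18 for all genes and 6.51 for the 6 Cyp4a genes. That median does not describe Cyp4a10, whose range was reached by 38.8% of all genes. Por ran from 288 ± 62.3 CPM in NZO/HlLtJ to 617 ± 83 CPM in C57BL/6J (edgeR adjusted p = 0.0115) and correlated with Cyp4a10 at r = 0.71. Aldh3a2, which oxidises the fatty aldehydes, ran from 121 to 296 CPM. Ehhadh ran from 242 to 471 CPM. Adh4, an alcohol dehydrogenase, had the strongest effect of the list and was highest in CAST/EiJ (235 ± 26.3 CPM).

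Of 23 PPAR-alpha targets outside the family, 18 differed among strains, a share of 78.3% beside 74.2% of all genes. Vnn1, a pantetheinase, had the strongest effect: 152 ± 78 CPM in C57BL/6J, a 27.9-fold range down to CAST/EiJ (edgeR adjusted p = 1.9e-09). Its log2 CPM correlated with Cyp4a14 at r = 0.75 and with Cyp4a12b at r = -0.69. Cpt1a, which admits fatty acids to mitochondria, was lowest in PWK/PhJ (199 ± 40.8 CPM) and highest in A/J (556.5 ± 60.7 CPM; edgeR adjusted p = 1.8e-05) and correlated with Cyp4a10 at r = 0.78. Acot3 was likewise lowest in PWK/PhJ (13.4 ± 6.43 CPM; 0.0148). Pdk4 was lowest in WSB/EiJ (2.49 ± 0.161 CPM) and PWK/PhJ (2.73 ± 0.959 CPM). Plin2 also differed, whereas Acot1 (adjusted p = 0.0788) and Fabp1 (0.0514) did not pass. In PWK/PhJ against C57BL/6J, 10 of the 23 were lower and 0 higher, beside 13.7% and 12.5% of all genes, with a median log2 difference of -0.54 beside 0.01. In CAST/EiJ 8 were lower and 1 higher, beside 19.7% and 18.4% of all genes.

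Ppara itself, the receptor of this programme, ranged 2.23-fold, from 33.9 ± 4.81 CPM in DBA/2J and 34.3 ± 7.41 CPM in PWK/PhJ to 75.6 ± 22.7 CPM in C57BL/6J (edgeR adjusted p = 0.00209). The partner receptor Rxra and the receptor Nr1i3 ranged 1.84-fold and 2.34-fold. Pparg, a low-expressed relative of Ppara, was the regulator with the strongest effect: 0.107 ± 0.0339 CPM in PWK/PhJ and 6.46 ± 0.35 CPM in 129S1/SvImJ (3.31e-06). Its log2 CPM correlated with Cyp4a14 at r = 0.86, and at r = 0.70 after strain means were taken out, which fell to 0.29 without WSB/EiJ replicate 4.

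**Figure D5:**
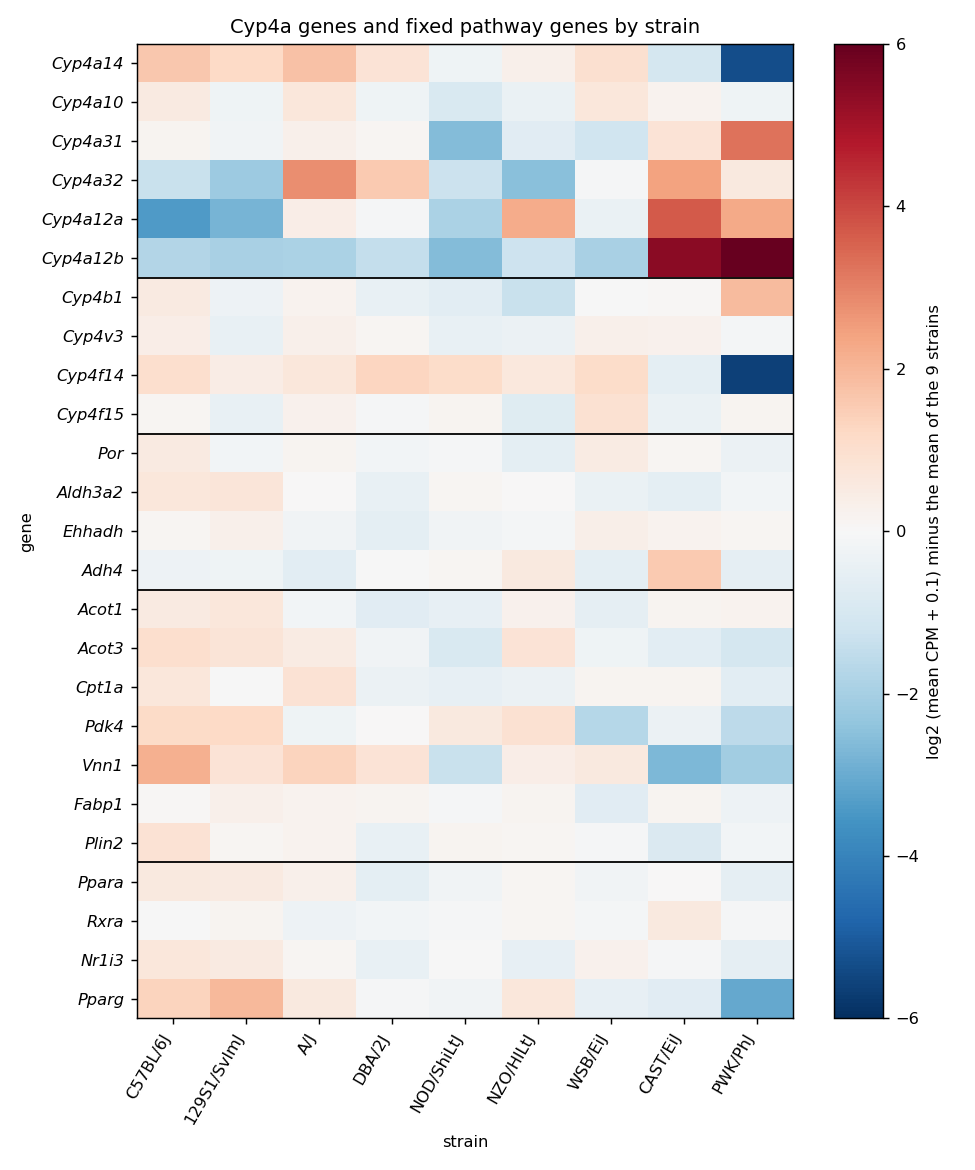
Strain levels of the Cyp4a genes and of pathway genes, as log2 of the mean CPM plus 0.1 minus the mean of the 9 strains; rows are genes in blocks (Cyp4a, other Cyp4, omega oxidation, PPAR-alpha targets, regulators), columns are strains, and the colour scale ends at 6 in either direction. The darkest blue cells are Cyp4a14 and Cyp4f14 in PWK/PhJ (strain means of 15 and 5.92 CPM).

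The members differed from one another in which genes they resembled. Across the 27 libraries, log2 CPM of Cyp4a12b correlated with Cyp4a31 at r = 0.80, with Cyp4a12a at 0.68 and with Cyp4a14 at -0.77. Among 12420 protein-coding genes outside the family, Cyp4a14 was most like Rdh16 (r = 0.937), a retinol dehydrogenase, Cerkl (0.911) and Ces2e (0.906), a carboxylesterase. Cyp4a10 was most like Agpat3 (0.838), an acyltransferase of phospholipid synthesis, Klb (0.832), the co-receptor of an endocrine fibroblast growth factor, and Slc27a2 (0.79), which activates very long-chain fatty acids. Cyp4a32 was most like Tuba1a (0.854), Amn (0.846) and Cyp3a25 (0.838), and Cyp4a31 like Frrs1 (0.847), Tspan9 (0.823) and Spg21 (0.821). For Cyp4a12b the closest genes were Mgst2 (0.942), Tmeff1 (0.94) and Slc38a11 (0.932), each at a mean of 1.04 CPM or less. For Cyp4a12a they were Wdr78 (0.771), Akr1c18 (0.738) and Nat8 (0.736). Points of a strain share its mean, so these r values describe the order of 9 strains more than 27 independent libraries.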

How the data were processed

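The authors deposited 1 table of estimated counts (expected counts) per Ensembl gene, not scaled to depth. Of its values, 14.7% were not whole, and they were rounded here. Per the submitters' processing notes the build was GRCm38 (mm10), and the notes name FastQC 0.11.5 and DESeq2; the aligner and counting program are not given in the sources used here. Per the labels' protocols, libraries were made with a TruSeq poly(A) kit, whose chemistry does not mark strand.

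Symbols came from GENCODE M21, which named 42462 of 43346 genes. The tests used edgeR 4.0.16, with limma 3.58.1, in R 4.3.3: filterByExpr by strain (14482 genes), TMM factors (0.722 to 1.226), 1 quasi-likelihood model over 27 libraries, an F test over the 9 strains and 36 pair contrasts, with Benjamini-Hochberg adjusted p-values called under 0.05. The script was tested on simulated data. CPM and log2 CPM (prior count 2) came from edgeR, and correlations are Pearson's r. A log2 standard error was derived from the F statistic. Coding sequences, positions and lengths came from GENCODE M21 transcripts. Alternatives were DESeq2 1.42.0, other filters, size factors and adjustments, summed copies, each pair fitted alone, a replicate block and leaving out each library.

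The list of members, taken by symbol, and the other gene lists were chosen with earlier results of these data known. Besides the members, genes named were a fixed set, the strongest strain effect of each list and the 3 genes most correlated with each member; Arntl and Npas2 were named after their values were seen, and 2 genes of the fixed set are not reported here. Counting error alone limits precision at low counts: a library with 0 counts allows up to 3, or 0.0759 to 0.155 CPM. All per-sample columns matched a sample.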

Additional observations from a re-analysis of the deposited data

How the results depend on the processing

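The strain effect on each of the 6 genes stayed past the threshold under DESeq2, median-of-ratios size factors, no filter, a minimum mean of 10 counts, the replicate block and without each library in turn; both sums were refitted only without each library and stayed past it. No called pair of the 6 genes changed direction under any of these alternatives. The number of strain pairs called for Cyp4a10 was less stable: 8 in the main analysis, 13 with no filter on low counts, 4 with the replicate block, and 6 to 14 when 1 library was left out, the 14 without DBA/2J replicate 3. For Cyp4a12a no filter gave 25 pairs in place of 16, and leaving out 1 library gave 14 to 21. For Cyp4a14, leaving out 1 library gave 14 to 24 pairs, the 24 without WSB/EiJ replicate 4. The between-strain share of variance of Cyp4a12b was 92% with a prior count of 0.5 and 94.9% with 2. Leaving WSB/EiJ replicate 4 out of the within-strain correlations was chosen after seeing the data. Replicate numbers did not pair the libraries: over 76 same-numbered pairs of different strains the deviations correlated between -0.29 and 0.28 (median 0.02), and 7 of 26 libraries correlated best with their own number. The block moved no other member's pair count by over 1.5 times. Under 30 counts, as in 7 strains for Cyp4a12b, depth limits any order of strains.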

Other observations

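Cyp4a12a and Cyp4a12b are usually described with other male-biased liver genes, whose strain levels are given here. Of 11 male-biased genes listed, 10 differed among strains, and of 16 female-biased genes all 16, beside 74.2% of all genes. Hsd3b5, a male-biased steroid dehydrogenase, was highest in NOD/ShiLtJ (26.2 ± 6.31 CPM) and PWK/PhJ (21.5 ± 6.32 CPM), and correlated with Cyp4a12b at r = 0.44 over 27 libraries. Elovl3 and Cyp2d9, also male-biased, were lowest in PWK/PhJ (1.69 ± 0.518 and 19.5 ± 12.3 CPM), where Cyp4a12b was highest; their r with Cyp4a12b was -0.67 and -0.23. C4a had the strongest strain effect of the list and was likewise lowest in PWK/PhJ (5.78 ± 2.15 CPM). Of the female-biased genes, Cyp2b9 was lowest in 129S1/SvImJ (2.49 ± 0.552 CPM) and highest in WSB/EiJ (1543 ± 66.5 CPM). Cyp2b13, the strongest of that list, was also lowest in 129S1/SvImJ (2.54 ± 0.879 CPM). Cux2, a female-biased regulator, was highest in CAST/EiJ (44.8 ± 4.73 CPM), the strain second highest in Cyp4a12b. Bcl6, a male-biased repressor, did not pass (edgeR adjusted p = 0.0627). Cyp2d9, Cyp2b9 and C4a have near-identical copies, and their counts were fractional in 26 or 27 libraries.

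Of 12 clock genes, 9 differed among strains, a share of 75% beside 74.2% of all genes. Per2 had the strongest effect, with its lowest mean in PWK/PhJ (0.899 ± 0.154 CPM) and its highest in CAST/EiJ, at 13.2 ± 5.77 CPM (edgeR adjusted p = 5.98e-06). Nr1d1 ran from 10.9 ± 2.41 CPM in NZO/HlLtJ to 71.8 ± 21.5 CPM in CAST/EiJ. Dbp held 50 CPM in A/J replicate 2 and 1.33 and 3.99 CPM in the other A/J libraries. The library highest in Dbp was also the highest in Cyp4a10 in 6 of 9 strains, and in Cyp4a14 in the same number. These counts were not set beside those of all genes. Log2 CPM of Cyp4a10 correlated at r = 0.66 with Dbp, 0.34 after strain means were taken out and 0.18 without WSB/EiJ replicate 4 as well.

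Of 9 genes that flank the cluster on chromosome 4, 5 differed among strains, a share of 55.6% beside 74.2% of all genes. Pdzk1ip1 had the strongest effect and was lowest in CAST/EiJ (0.0199 ± 0.0173 CPM) and highest in NOD/ShiLtJ (2.99 ± 0.728 CPM). The CAST/EiJ libraries held 1, 1 and 0 counts, so counting error limits that level.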
